A study of Mus musculus with 17 samples.

Results

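The hearts of tumour-bearing mice that swam were compared with the hearts of tumour-bearing mice that did not, by sequencing of RNA from whole cardiac tissue. The comparison uses 12 of the 17 libraries of the series. They were taken by their labels, 6 with the genotype entry Model, whose treatment entry names transplanted tumour implants, and 6 with the genotype entry ModelSwimming, whose treatment entry names the swimming exercise. No exercise is listed for the Model mice, and the tumour of the swimming mice is given by the word Model in their label. They are called tumour and swim hearts here. The other 5 libraries, labelled CON, came from mice with no tumours and serve for reference levels. The sources used here do not give the tumour type, the strain, sex and age of the mice, or the length and timing of the swimming. Nor do they say that each library came from its own mouse. A p-value here sets the difference between the groups against the spread of their libraries, which may be technical.

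Swimming is an endurance load on the heart, and in mice it is known to cause growth of heart muscle through growth factor and kinase signals, among them the PI3K and AKT pathway. Bouts of exercise also raise heat shock proteins, chaperones that refold damaged proteins and are switched on by heat shock factor 1 at DNA sites called heat shock elements. A growing tumour acts on the distant heart through inflammatory and metabolic signals, and heart muscle may then lose mass by proteolysis.

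Genes were tested where their mean reached 0.5 FPKM (reads per kilobase of exon, scaled to the depth of the library) in tumour hearts, swim hearts or both. Of 13469 such genes, 13 passed an adjusted p of 0.05, which is 0.0965% of the genes tested. Of these, 11 were higher in swim hearts (0.0817%) and 2 were lower (0.0148%). The 11 genes that rose include the stress-inducible chaperone Hspa1a, its partner Dnajb1, the actin-gene regulator Srf and the heart transcription factor Hand2, and the 2 that fell are the chromatin protein Hmgb2 and the protease inhibitor Serpinb6b. The tests were made with limma on log2(FPKM + 1), with a weight for each library, and fold changes below are on this scale, which understates the change of genes near or under 1 FPKM. Over all genes tested the median log2 fold change was 0.03.

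The swim library with replicate number 1 stood apart from the other 11 and received a weight of 0.04, against 0.82 to 2.67 for the rest. Its mitochondrially encoded genes took 46.3% of the reads, against 18.7 to 22.3% in the other swim hearts and 18.2 to 29.7% in the tumour hearts. It held 10773 genes at or above 0.5 FPKM, against 12940 to 13605 in the other 11 libraries. The depth recovered from the values was 17.8 ± 1.82 M reads in tumour hearts and 15.4 ± 1.06 M reads in swim hearts (SD, n = 6 each, exact permutation p = 0.0216, 0.0866 after adjustment over 4 library measures). The share of reads from haemoglobin genes was 0.299 ± 0.11% in tumour hearts and 0.339 ± 0.137% in swim hearts (SD, n = 6 each, exact permutation p = 0.613), so no difference in residual blood was detected. All 10 cardiomyocyte markers were tested, and their summed level was 13580 to 16275 FPKM in tumour hearts and 14234 to 17982 FPKM in swim hearts.

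**Figure D1:**
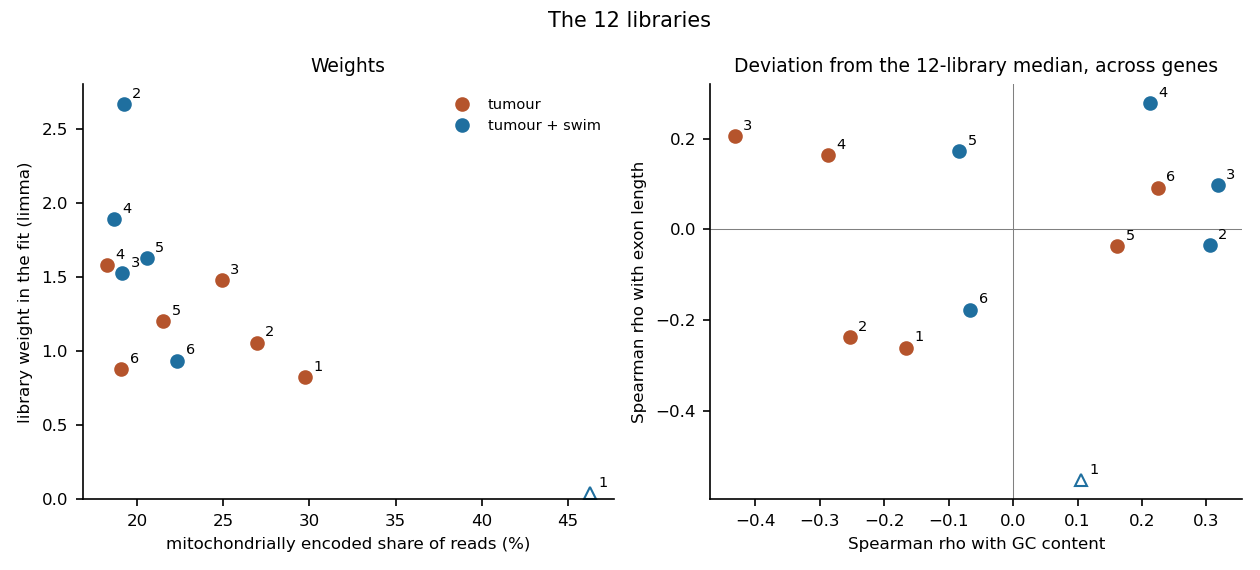
Library weight against the mitochondrially encoded share of reads in percent (left), and the rank correlation of each library's deviation from the 12-library median with gene GC content and exon length (right), for 6 tumour and 6 swim libraries numbered by replicate. Swim library 1 (open triangle) has the lowest weight (0.04), a mitochondrial share of 46.3% and a length correlation of -0.55. Tumour libraries 1 to 4 (-0.43 to -0.17) and swim libraries 5 and 6 (-0.08 and -0.07) lie at negative GC correlations.

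Fold changes followed the base composition of the genes. The Spearman correlation across genes between the log2 fold change and exon GC content was 0.38 (13411 genes, which are not independent replicates), and with exon length it was 0.06. The 11 genes that rose had a GC content of 51.4 to 66.4% and the 2 that fell had 38.7 and 44.1%, against a median of 49.7% over all genes tested. With the GC trend removed from each library, the log2 fold changes of all 13 genes kept their sign, 0 of 13469 genes passed in the higher direction and 1, Hmgb2, in the lower (limma adjusted p = 0.0381). Among the genes that lost their call in that fit, the log2 fold change was 0.95 for Hspa1a, 0.9 for Hand2, 0.87 for Siah2, 0.79 for Pla2g5 and 0.42 for Srf.

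The heat shock group held 2 of the 11 genes that rose. Hspa1a encodes the stress-inducible chaperone Hsp70 and lies on chromosome 17 (chr17:34969190-34972156, minus strand, GRCm38). It ranged from 0.366 to 1.03 FPKM in tumour hearts (median 0.629) and from 0.657 to 3.6 FPKM in swim hearts (median 2.15). Swim libraries 2 to 6 all lay above every tumour library, and swim library 1 lay inside the tumour range. The log2 fold change was 1.09 ± 0.19 (SE, limma adjusted p = 0.0352). Control hearts ran from 0.244 to 57.4 FPKM with a median of 1.66, and all 6 swim and all 6 tumour libraries lay within that range. Hspa1b, a neighbouring gene of nearly the same sequence whose reads could not be told apart from those of Hspa1a where the copies match, was at 0.426 to 1.53 FPKM in tumour hearts (median 0.944) and 0.562 to 5.64 FPKM in swim hearts (median 2.99). Its log2 fold change of 1.25 ± 0.25 did not pass (adjusted p = 0.0742).

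Dnajb1, an Hsp40 co-chaperone that drives the ATPase cycle of Hsp70, lies on chromosome 8 (chr8:83608193-83612653). It stood at 4.2 to 6.91 FPKM in tumour hearts (median 4.88) and 3.7 to 14.1 FPKM in swim hearts (median 9.88), and rose by a log2 fold change of 0.94 ± 0.16 (SE, adjusted p = 0.0392). The groups overlapped, with swim libraries 2 to 5 above all tumour hearts, swim library 6 just below the highest tumour heart and swim library 1 below the lowest. Control hearts were at 7.67 to 62.9 FPKM.

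The sequence before the start of Hspa1a and Hspa1b is shown because both copies carry a heat shock element in its short form, in capitals, at the same place. The 250 bases before the start are from RefSeq on GRCm38.p6, minus strand, at chr17:34972157-34972406 for Hspa1a and chr17:34959239-34959488 for Hspa1b, and they are the same at 247 of 250 positions.
Hspa1a: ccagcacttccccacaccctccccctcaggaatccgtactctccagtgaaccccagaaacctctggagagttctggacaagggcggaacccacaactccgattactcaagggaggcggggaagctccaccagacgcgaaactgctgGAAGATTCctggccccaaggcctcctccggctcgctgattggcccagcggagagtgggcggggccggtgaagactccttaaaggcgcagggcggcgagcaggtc
Hspa1b: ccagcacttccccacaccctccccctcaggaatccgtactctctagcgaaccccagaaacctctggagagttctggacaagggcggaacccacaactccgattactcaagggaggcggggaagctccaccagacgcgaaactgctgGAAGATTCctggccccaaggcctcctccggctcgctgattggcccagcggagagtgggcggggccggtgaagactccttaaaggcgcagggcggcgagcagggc
The capitals mark a heat shock element of 2 units, searched for as GAANNTTC or TTCNNGAA, each of which reads the same on both strands. It begins 104 bases before the start in both genes. In windows from 250 bases before to 50 bases after the start, this motif was found in 15.2% of 27018 promoters. Among the 9710 tested genes with a promoter sequence it was found in 11.7%. It was found in 2 of the 12 genes past the threshold that had a promoter sequence, Hspa1a and Ppp1r10, the latter after its start. The longer form of 3 units (GAANNTTCNNGAA or TTCNNGAANNTTC, which contain the short form) was found in 0.537% of promoters, 0.43% of those of tested genes and 0 of the 12. Dnajb1 held neither form in this window. The chaperone gene Hspb1, which did not pass, held the short form at 2 places and not the long form. These matches describe letters, not binding.

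All 33 listed heat shock proteins and co-chaperones were tested, and the list was chosen with earlier results of these data known. Of the 33, 2 rose and 0 fell, beside 0.0817% and 0.0148% of all genes tested. Their median log2 fold change was 0.23 against 0.03 over all genes, and 30 of 33 had a positive fold change. At an unadjusted p under 0.05, 14 were higher and 1 was lower, which is to be read against 11.1% and 5.45% of all genes tested. Among the small heat shock proteins, which hold unfolded proteins for refolding, Hspb1 was at 122 to 186 FPKM in tumour hearts (median 155) and 180 to 262 FPKM in swim hearts (median 211), with swim libraries 2 to 6 above every tumour library and a log2 fold change of 0.58 ± 0.11 (adjusted p = 0.0742). Hspb8, Hspb6 and Cryab, others of that family, had log2 fold changes of 0.31, 0.44 and 0.19, and none passed. Hsph1, the exchange factor of Hsp70, was at a mean of 3.58 FPKM in tumour hearts and 5.05 FPKM in swim hearts (log2 fold change 0.54, adjusted p = 0.18). Hsp90b1, the Hsp90 of the endoplasmic reticulum, was the member with a lower value at an unadjusted p under 0.05, at a mean of 63.7 FPKM in tumour hearts and 45.7 FPKM in swim hearts (log2 fold change -0.33, adjusted p = 0.24). With the GC trend removed, 11 members were higher and 1 lower at that unadjusted threshold, and without library weights 5 were higher and 1 was lower. In either direction, 2027 of all 13469 genes were under that threshold with the GC trend removed, and 529 (3.93%) without library weights. The list's median stayed above 0 in each of 25 alternative settings, between 0.14 and 0.25.

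**Figure D2:**
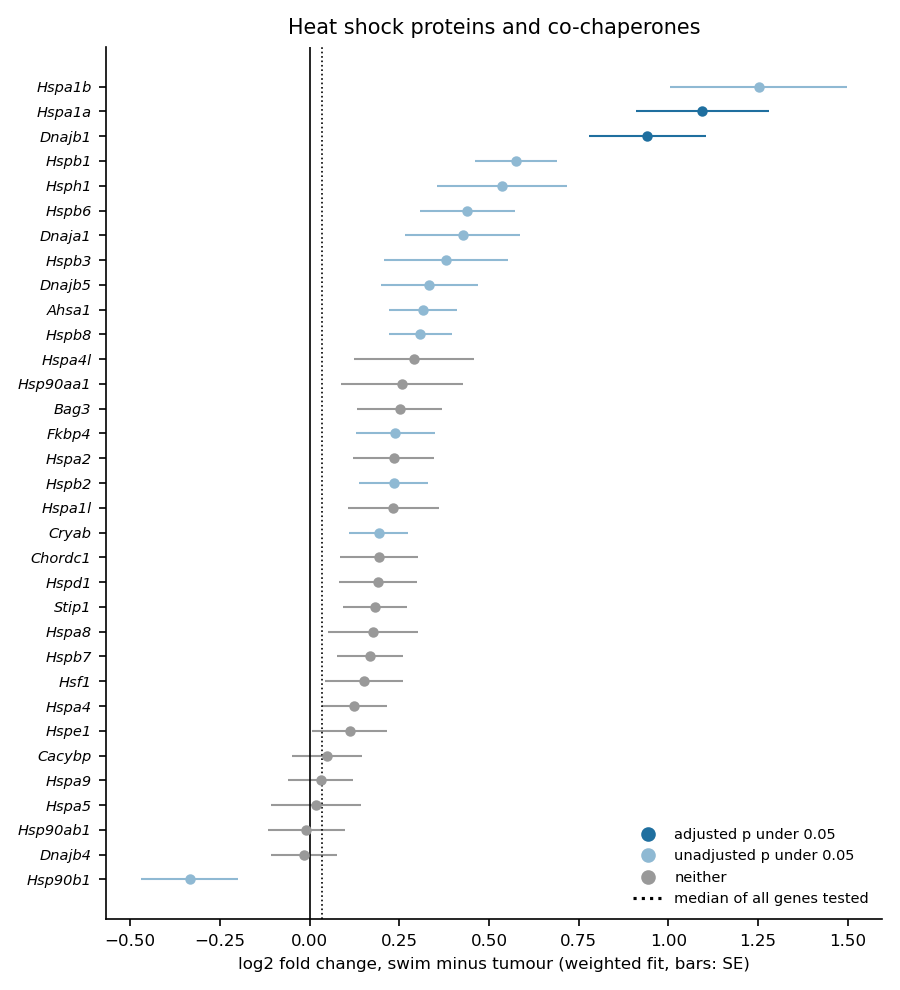
Weighted log2 fold change (swim minus tumour, log2(FPKM + 1) scale) of 33 heat shock proteins and co-chaperones, with bars of 1 SE from 6 libraries a group. Hspa1b, Hspa1a and Dnajb1 lie between 0.94 and 1.25, most of the others lie between 0 and 0.5, and Hsp90b1 lies at -0.33.

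Srf encodes serum response factor, which binds the CArG box in actin genes, other muscle genes and immediate early genes, and lies on chromosome 17 (chr17:46548329-46556175, minus strand). It was at 18.2 to 31.3 FPKM in tumour hearts (median 22.5) and 14.1 to 38.2 FPKM in swim hearts (median 34). Swim libraries 2 to 6 lay between 33.4 and 38.2 FPKM, above every tumour heart, and swim library 1 was the lowest of the 12 libraries. The gene rose by a log2 fold change of 0.64 ± 0.105 (SE, adjusted p = 0.0352). The control hearts were at 21.1 to 49.4 FPKM.

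The bases before the start of Srf are shown because the gene carries boxes for its own product, in capitals, as the RefSeq sequence on the minus strand at chr17:46556163-46556412 (GRCm38.p6).
Srf: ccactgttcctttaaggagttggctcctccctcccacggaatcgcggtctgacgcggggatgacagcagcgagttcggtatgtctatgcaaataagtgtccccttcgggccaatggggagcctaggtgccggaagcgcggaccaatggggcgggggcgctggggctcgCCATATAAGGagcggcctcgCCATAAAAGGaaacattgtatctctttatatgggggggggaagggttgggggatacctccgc
The capitals mark 2 CArG boxes, CCATATAAGG and CCATAAAAGG, which begin 82 and 62 bases before the start. A CArG box was found in the 300-base window of 1.57% of 27018 promoters and of 1.33% of the 9710 tested genes with a promoter sequence. Of the 12 genes past the threshold that had a sequence, 1 held it, Srf itself. The search on both strands was chosen after the result for Srf was known.

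The actin genes that Srf is known to bind had large fold changes and a wide spread, and none passed. Whether Srf had a part in their values was not tested. Acta1, the skeletal alpha-actin that the heart expresses before birth and under load, ranged from 119 to 846 FPKM in tumour hearts (median 266) and from 307 to 2065 FPKM in swim hearts (median 915). Swim libraries 2, 5 and 6 lay above every tumour library, and the log2 fold change of 1.71 ± 0.49 did not pass (adjusted p = 0.137). Acta2, the smooth muscle alpha-actin, was at 24.6 to 55.1 FPKM in tumour hearts (median 38) and 33 to 200 FPKM in swim hearts (median 90.2), with the same 3 libraries highest (log2 fold change 1.38 ± 0.4, adjusted p = 0.145). Actc1, the main actin of adult heart muscle, ranged from 1177 to 1683 FPKM in tumour hearts and from 1339 to 3431 FPKM in swim hearts (log2 fold change 0.63 ± 0.18, adjusted p = 0.137). Control hearts were above every tumour heart for all 3 actins, with lowest values of 1847, 137 and 2511 FPKM for Acta1, Acta2 and Actc1.

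Hand2, a transcription factor known for its part in building the right ventricle, lies on chromosome 8 (chr8:57320983-57324633). It was at 17.3 to 30.3 FPKM in tumour hearts (median 20.3) and 20.9 to 55.6 FPKM in swim hearts (median 41.8), and rose by a log2 fold change of 1.04 ± 0.17 (SE, adjusted p = 0.0352). Swim libraries 2 to 5 lay above all tumour hearts, and libraries 1 and 6 lay inside the tumour range. Control hearts were at 15.8 to 37.2 FPKM, so 3 of the swim libraries exceeded the highest control.

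Siah2, a ubiquitin ligase that marks prolyl hydroxylases for degradation, rose from a median of 2.41 FPKM in tumour hearts (2.26 to 3.69) to 5.67 FPKM in swim hearts (2.02 to 8.13), a log2 fold change of 1 ± 0.17 (SE, adjusted p = 0.0352). It lies at chr3:58674938-58692400, and swim libraries 2 to 6 were above all tumour libraries. Egln3, a prolyl hydroxylase of the oxygen-sensing pathway, was at 12 to 16.5 FPKM in tumour hearts (median 13.5) and 11.1 to 37.2 FPKM in swim hearts (median 23.9), and did not pass (log2 fold change 0.84 ± 0.18, adjusted p = 0.0903). All control hearts, at 37.1 to 51.7 FPKM, were above every tumour heart for this gene.

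Pla2g5, a secreted phospholipase A2 at chr4:138799244-138863482, was at 3.23 to 5.25 FPKM in tumour hearts (median 4.69) and 5.85 to 10.6 FPKM in swim hearts (median 7.5), with no overlap of the groups in all 12 libraries (log2 fold change 0.82 ± 0.14, SE, adjusted p = 0.0352). Atg4d, a protease of the autophagy pathway at chr9:21265293-21277772, was at 4.78 to 6.46 FPKM in tumour hearts (median 5.12) and 6.88 to 9.14 FPKM in swim hearts (median 7.63), also with no overlap (log2 fold change 0.45 ± 0.075, adjusted p = 0.0352). Over all genes tested, 0.148% had every swim library above every tumour library and 0.23% every swim library below.

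Ppp1r10, the nuclear targeting subunit of protein phosphatase 1 at chr17:35916434-35932283, was at 3.96 to 5.29 FPKM in tumour hearts (median 4.71) and 2.51 to 10.3 FPKM in swim hearts (median 7.68). Swim libraries 2 to 6 lay above all tumour hearts and swim library 1 below all of them, and the log2 fold change was 0.8 ± 0.11 (SE, adjusted p = 0.0145). It also passed, as did Hmgb2, in the 1 fit that both left out swim library 1 and used no weights (limma adjusted p = 0.0484). Without weights over all 12 libraries Ppp1r10 did not pass (limma adjusted p = 0.928). Dact3, an antagonist of Wnt signalling, and Pkdcc, a secreted tyrosine kinase, had the same order of libraries apart from swim library 1, which for Pkdcc lay inside the tumour range. Dact3 went from a median of 4.91 FPKM in tumour hearts to 8.73 FPKM in swim hearts (log2 fold change 0.73 ± 0.12, adjusted p = 0.0352). Pkdcc went from a median of 9.1 FPKM to 15.3 FPKM (log2 fold change 0.67 ± 0.1, adjusted p = 0.035). Rtl3, a gene derived from a retrotransposon Gag protein, was near the detection limit, at a median of 0.375 FPKM in tumour hearts and 1.16 FPKM in swim hearts (log2 fold change 0.62 ± 0.09, adjusted p = 0.0145). It passed the filter of 0.5 FPKM only through swim hearts, where its mean was 1.04 FPKM against 0.412 FPKM in tumour hearts. Without swim library 1, 9 of the 11 genes that rose had all swim libraries above all tumour libraries, against 0.861% of all genes tested, and the exceptions were Dnajb1 and Hand2. In the other direction 0.297% of all genes had no overlap, and both genes that fell were among them. The genes were chosen by p from these same values, with little weight on swim library 1. Their separation follows largely from that choice and is no separate support.

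Hmgb2, a chromatin protein that bends DNA, fell. It lies at chr8:57511907-57515999 and was at 2.93 to 4.02 FPKM in tumour hearts (median 3.65) and 0.724 to 2.28 FPKM in swim hearts (median 1.85). Every swim library lay below every tumour library, and the log2 fold change was -0.63 ± 0.08 (SE, adjusted p = 0.0145). Control hearts spanned both groups, at 1.65 to 3.98 FPKM. Serpinb6b, an intracellular inhibitor of serine proteases at chr13:32965209-32979067, was at 36.6 to 45 FPKM in tumour hearts (median 40.4) and 26.6 to 31.9 FPKM in swim hearts (median 29.9), again with no overlap (log2 fold change -0.45 ± 0.08, adjusted p = 0.0352). Control hearts were at 20.7 to 29.4 FPKM, below every tumour heart.

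The next 3 genes by p in the lower direction had no overlap between the groups either, but did not pass. Over all genes tested, 0.23% had every swim library below every tumour library. These 3 genes too were chosen by p from the same values, so their separation is no separate support. Arrdc3, an arrestin-domain protein that acts on beta-adrenergic receptors, was at 9.22 to 13.8 FPKM in tumour hearts and 1.76 to 8.67 FPKM in swim hearts (log2 fold change -0.61 ± 0.11, adjusted p = 0.0658). Nt5e, the ectoenzyme CD73 that makes adenosine, was at 2.85 to 4.08 FPKM in tumour hearts and 1.19 to 2.76 FPKM in swim hearts (log2 fold change -0.46 ± 0.09, adjusted p = 0.0742). The zinc finger gene Zfp119b was at 1.43 to 2.75 FPKM and 0.657 to 1.26 FPKM (log2 fold change -0.57 ± 0.11, adjusted p = 0.0707).

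**Figure D3:**
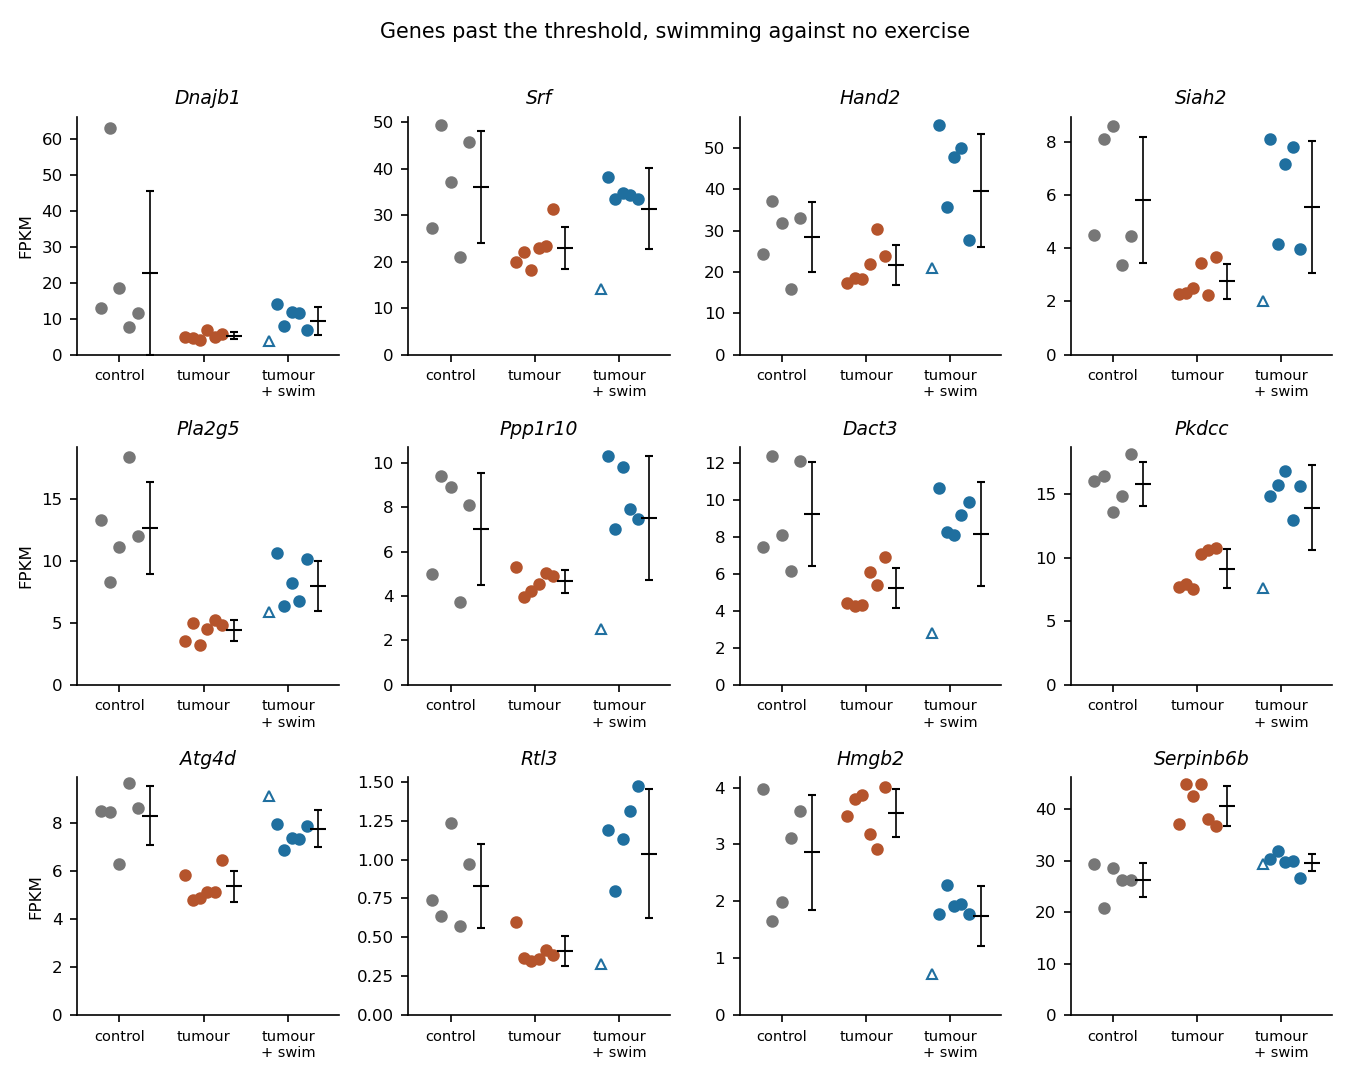
FPKM by library for 12 of the 13 genes past the threshold (Hspa1a is given in the text), in 5 control, 6 tumour and 6 swim hearts, with the mean and SD beside each group and swim library 1 as an open triangle. Pla2g5, Atg4d, Hmgb2 and Serpinb6b show no overlap between tumour and swim hearts, and swim library 1 is the lowest swim heart in most other panels.

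The number of genes past the threshold depended on single libraries. The counts of 11 higher and 2 lower became 4 and 1 without swim library 1, 57 and 31 without swim library 3, 39 and 8 without tumour library 6, and 30 and 10 without tumour library 5. They became 2 and 1 without tumour library 1 or swim library 5, 3 and 1 without swim library 4, and 0 and 0 without tumour library 2, tumour library 3 or swim library 2. Without weights, where swim library 1 counts in full, 0 genes passed and 529 were at an unadjusted p under 0.05. All 13 genes tested in a setting kept the sign of their fold change in that setting, and of the 25 alternatives Hmgb2 passed in 19, Ppp1r10 in 17 and the other 11 genes in 6 to 14.

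No gene of heart muscle stress or of the contractile apparatus passed. Of 21 tested stress and fetal genes, 7 were higher and 3 lower at an unadjusted p under 0.05, with a median log2 fold change of 0.15, and 4 were higher and 2 lower without swim library 5. Of 27 tested sarcomere genes, 6 were higher and 3 lower, with a median of 0.05, and 3 were higher without tumour library 6, swim library 2 or swim library 6. Among all genes tested, 11.1% were higher and 5.45% lower at that threshold. Myh7, the slow myosin heavy chain of the fetal heart, was at 81 to 359 FPKM in tumour hearts (median 136) and 31.4 to 91.6 FPKM in swim hearts (median 65.2). Its log2 fold change of -1.13 ± 0.31 did not pass (adjusted p = 0.136), 4 swim libraries lay below every tumour library, and control hearts were at 12.8 to 57.5 FPKM. Myh6, the fast myosin of the adult mouse heart, had medians of 3195 FPKM in tumour hearts and 3272 FPKM in swim hearts (log2 fold change 0.05 ± 0.12, adjusted p = 0.861). The natriuretic peptide genes, which respond to wall stress, had wide ranges. Nppa was at 5.68 to 18.3 FPKM in tumour hearts and 3.3 to 51.6 FPKM in swim hearts (log2 fold change 0.42 ± 0.56, adjusted p = 0.749), and Nppb was at 99.5 to 329 FPKM and 109 to 586 FPKM (log2 fold change -0.02 ± 0.355, adjusted p = 0.986). Sign changes of Myh6, Nppa and Nppb among the alternatives are given in the closing section.

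**Figure D4:**
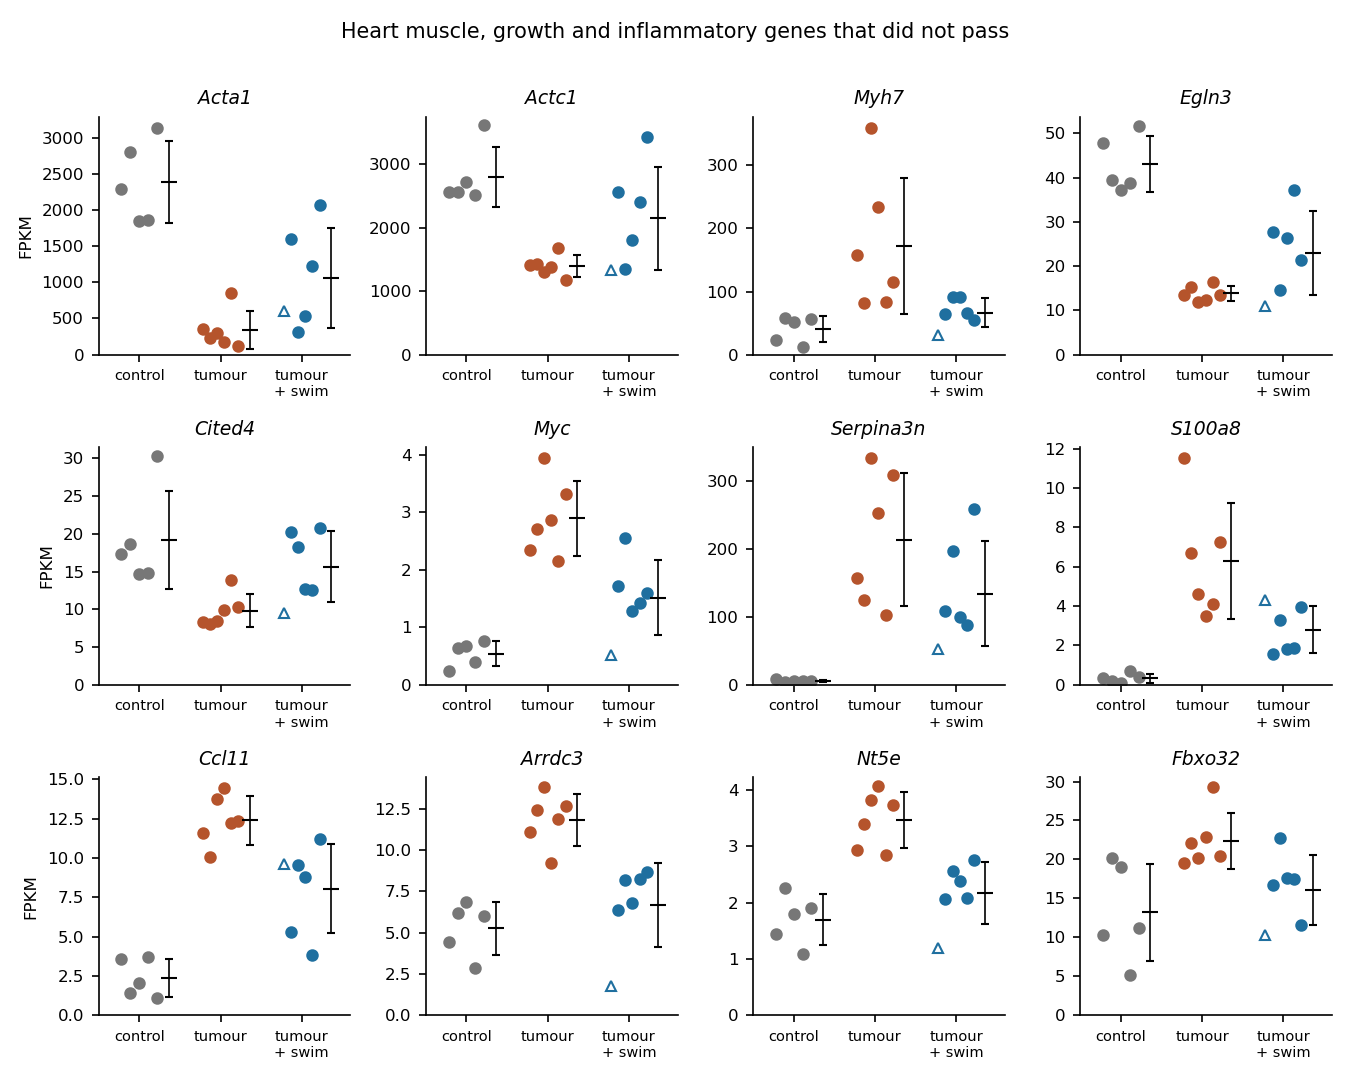
FPKM by library for 12 heart muscle, growth and inflammatory genes that did not pass the threshold, in 5 control, 6 tumour and 6 swim hearts, with the mean and SD beside each group and swim library 1 as an open triangle. Acta1 reaches 2065 FPKM in swim hearts with a wide spread, Myh7 lies at 31.4 to 91.6 FPKM in swim hearts, and Serpina3n overlaps between tumour and swim hearts.

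Among 29 tested regulators that exercise is known to act on in mouse hearts, 0 passed. At an unadjusted p under 0.05, 6 were higher and 0 lower, against 11.1% and 5.45% of all genes, and 3 were higher without tumour library 3. The median log2 fold change was 0.14 (-0.1 without library weights). Cited4, a transcription cofactor known to rise in mouse hearts with swimming, was at 8.05 to 13.8 FPKM in tumour hearts (median 9.18) and 9.54 to 20.7 FPKM in swim hearts (median 15.5), with a log2 fold change of 0.7 ± 0.16 (adjusted p = 0.0944). Cebpb, the factor known to fall when Cited4 rises with exercise, had medians of 26.8 and 39.3 FPKM and a log2 fold change of 0.36 ± 0.21 (adjusted p = 0.411). Ppargc1a, a driver of mitochondrial growth, had medians of 16.1 and 14.8 FPKM (log2 fold change -0.2 ± 0.135, adjusted p = 0.481).

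Immediate early genes, which respond within minutes to growth factors and stress and many of which are targets of serum response factor, gave no call. Of 22 tested, 10 were higher and 2 lower at an unadjusted p under 0.05, and the median was 0.26. The shares of all genes were 11.1% higher and 5.45% lower. The list's median stayed above 0 in all 25 alternatives, between 0.07 and 0.32, while the unadjusted counts without library weights were 2 higher and 2 lower, beside 3.93% of all genes in either direction. Dusp1, a phosphatase that switches off MAP kinases, was at 12.1 to 17.4 FPKM in tumour hearts (median 14.4) and 13.1 to 25.1 FPKM in swim hearts (median 20.5), with a log2 fold change of 0.55 ± 0.11 (adjusted p = 0.0903). Jund, a subunit of the AP-1 factor, had medians of 20.7 and 28.8 FPKM (log2 fold change 0.6 ± 0.14, adjusted p = 0.0944). Myc, a growth regulator, lay on the other side, at 2.15 to 3.95 FPKM in tumour hearts and 0.524 to 2.55 FPKM in swim hearts (log2 fold change -0.55 ± 0.13, adjusted p = 0.095). Control hearts were at 0.232 to 0.759 FPKM of Myc.

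The PI3K and AKT pathway gave no gene past the threshold. Of 38 tested core members, 4 were higher and 2 lower at an unadjusted p under 0.05, shares of the kind seen among all genes, with a median of 0.05. Akt1 had medians of 47.2 FPKM in tumour hearts and 46.9 FPKM in swim hearts (difference of -0.02 ± 0.12 in log2, adjusted p = 0.941). Pik3ca, which encodes a catalytic subunit of PI3K, had medians of 7.76 and 8.04 FPKM (0.07 ± 0.09 in log2, adjusted p = 0.758). Eif4e, the cap-binding factor downstream of the pathway, had the smallest p of the list, at 27.3 to 38.8 FPKM in tumour hearts and 15.3 to 33.4 FPKM in swim hearts (log2 fold change -0.36 ± 0.1, adjusted p = 0.136). Of 30 tested ligands and receptors, 5 were higher and 0 lower at an unadjusted p under 0.05, which is near the 11.1% and 5.45% of all genes for so short a list. Fgf16, a growth factor made by heart muscle, was at 2.16 to 4.56 FPKM in tumour hearts (median 2.95) and 3.32 to 7.34 FPKM in swim hearts (median 5.66), with a log2 fold change of 0.7 ± 0.17 (adjusted p = 0.109).

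Genes of fatty acid use, the main fuel pathway of the adult heart, had no gene past the threshold. Of 42 tested, 14 were higher and 1 lower at an unadjusted p under 0.05, 37 had a positive fold change, and the median was 0.18, which stayed between 0.09 and 0.25 in the 25 alternatives. The count of 14 is to be read against 11.1% of all genes. It fell to 6 without tumour library 3 or 4, to 7 without swim library 5 and to 9 without tumour library 6 or swim library 4. Acaa2, a thiolase of beta-oxidation, was at 438 to 602 FPKM in tumour hearts (median 483) and 520 to 670 FPKM in swim hearts (median 660), with a log2 fold change of 0.34 ± 0.1 (adjusted p = 0.137). The member on the other side was Lpl, which releases fatty acids from lipoproteins, at a mean of 664 FPKM in tumour hearts and 483 FPKM in swim hearts (log2 fold change -0.36, adjusted p = 0.23). Without library weights 2 members were higher and 0 lower at the unadjusted threshold, beside 3.93% of all genes, and with the GC trend removed 12 were higher and 1 was lower.

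Nuclear genes of oxidative phosphorylation gave no call. Of 74 tested, 11 were higher and 0 lower at an unadjusted p under 0.05, with a median of 0.1. The share of 11 in 74 is near the 11.1% of all genes. Without tumour library 3 the counts were 4 higher and 2 lower with a median of 0.02, and without swim library 2 they were 4 and 0 with a median of 0.05. The number higher was 6 without tumour library 4 and 7 without swim library 6. Cyc1, cytochrome c1 of complex III, was at 265 to 360 FPKM in tumour hearts and 333 to 423 FPKM in swim hearts (log2 fold change 0.34 ± 0.09, adjusted p = 0.133), and with the GC trend removed its fold change was 0.19. Of 13 mitochondrially encoded genes, 1 was higher and 3 were lower at that threshold, with a median of -0.25. That median ran from -0.38 to -0.0017 over the 25 alternatives. Of 32 tested genes of glycolysis and glucose use, 5 were higher and 2 lower, near the shares of all genes (11.1% and 5.45%), with Pgam1, a glycolytic mutase, at medians of 26 and 43 FPKM (log2 fold change 0.6 ± 0.13, adjusted p = 0.0944).

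No acute phase or cytokine gene passed. Of 20 tested acute phase genes and targets of the IL6 and STAT3 pathway, 0 were higher and 6 lower at an unadjusted p under 0.05, with a median of -0.17 that stayed below 0 in all 25 alternatives (-0.33 to -0.09). Among all genes, 11.1% were higher and 5.45% lower. The count of 6 rested on single libraries: it was 1 without tumour library 3 or 4, and 2 without tumour library 6 or swim library 2, 4 or 5. It was also 1 without library weights. Serpina3n, an acute phase protease inhibitor, was at 103 to 334 FPKM in tumour hearts (median 206), 52.6 to 258 FPKM in swim hearts (median 105) and 3.95 to 8.82 FPKM in control hearts (log2 fold change -0.68 ± 0.31, adjusted p = 0.293). Every tumour and swim library was above every control library for this gene. Lcn2, an iron-binding acute phase protein, was at medians of 10.6 and 6.73 FPKM (log2 fold change -0.72 ± 0.3, adjusted p = 0.255). None of the 18 tested complement genes was at an unadjusted p under 0.05, and C3, the central complement protein, differed by -0.05 ± 0.22 on the log2 scale (adjusted p = 0.933). Of the 18, 14 had a negative fold change and 4 a positive one. The complement median of -0.09 stayed below 0 in all 25 alternatives (-0.26 to -0.0004). Without tumour library 5, 7 were lower and 0 higher at that threshold, beside 20% of all genes in either direction.

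Of 29 tested cytokine genes and NF-kB targets, 1 was higher and 6 were lower at an unadjusted p under 0.05, with a median of -0.12, against 11.1% and 5.45% of all genes. The median stayed below 0 in all 25 alternatives, between -0.26 and -0.04. It was -0.04 at a mean of at least 2 FPKM, -0.05 with no filter on low values and -0.07 without swim library 4. Without swim library 3, 10 were lower. Ccl11, a chemokine for eosinophils, was at 10.1 to 14.5 FPKM in tumour hearts (median 12.3) and 3.81 to 11.2 FPKM in swim hearts (median 9.18), with 5 of 6 swim libraries below every tumour library (log2 fold change -0.81 ± 0.2, adjusted p = 0.111). The cytokine genes most often named in tumour cachexia were near or under the detection limit. Il6 was at 0 to 0.113 FPKM in tumour hearts and 0 to 0.162 FPKM in swim hearts, and Tnf was at 0.0829 to 0.798 FPKM and 0.0915 to 0.658 FPKM, so neither was tested. Il1b had medians of 0.684 and 0.407 FPKM (log2 fold change -0.25 ± 0.12, adjusted p = 0.305).

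Of 18 neutrophil markers, 8 were abundant enough to test, and 4 of these were lower and 0 higher at an unadjusted p under 0.05, with a median log2 fold change of -0.46 (all genes 5.45% lower and 11.1% higher). A marker could pass the filter through its mean in tumour hearts alone. The median ran from -0.85 over 3 markers at a mean of at least 2 FPKM to -0.18 over all 18 with no filter. With no filter 6 were lower and 0 higher, beside 8.46% of all genes in either direction. The summed level of the 18 markers was 20 to 59.8 FPKM in tumour hearts (median 21.8), 7.76 to 21.6 FPKM in swim hearts (median 13.5) and 2.11 to 4.45 FPKM in control hearts. S100a8, a calcium-binding protein that neutrophils carry in large amounts, was at 3.5 to 11.5 FPKM in tumour hearts (median 5.66) and 1.56 to 4.32 FPKM in swim hearts (median 2.57), with a log2 fold change of -1.01 ± 0.22 (adjusted p = 0.0903). Its partner S100a9 had medians of 9.2 and 6.03 FPKM (log2 fold change -0.86 ± 0.32, adjusted p = 0.209). The defining markers Elane, Ly6g and Mpo were listed at 0 in 6 or more of the 12 libraries. In whole tissue, fewer cells of a type and less RNA per cell cannot be told apart, and the part of neutrophil RNA in the lower acute phase and cytokine values was not tested. Of 23 tested macrophage markers, 0 were higher and 3 lower, beside 11.1% and 5.45% of all genes, with a median of -0.17. With a library left out the number lower ran from 1 without tumour library 4 to 8 without tumour library 5. The markers had summed levels of 426 to 949 FPKM in tumour hearts and 305 to 643 FPKM in swim hearts.

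**Figure D5:**
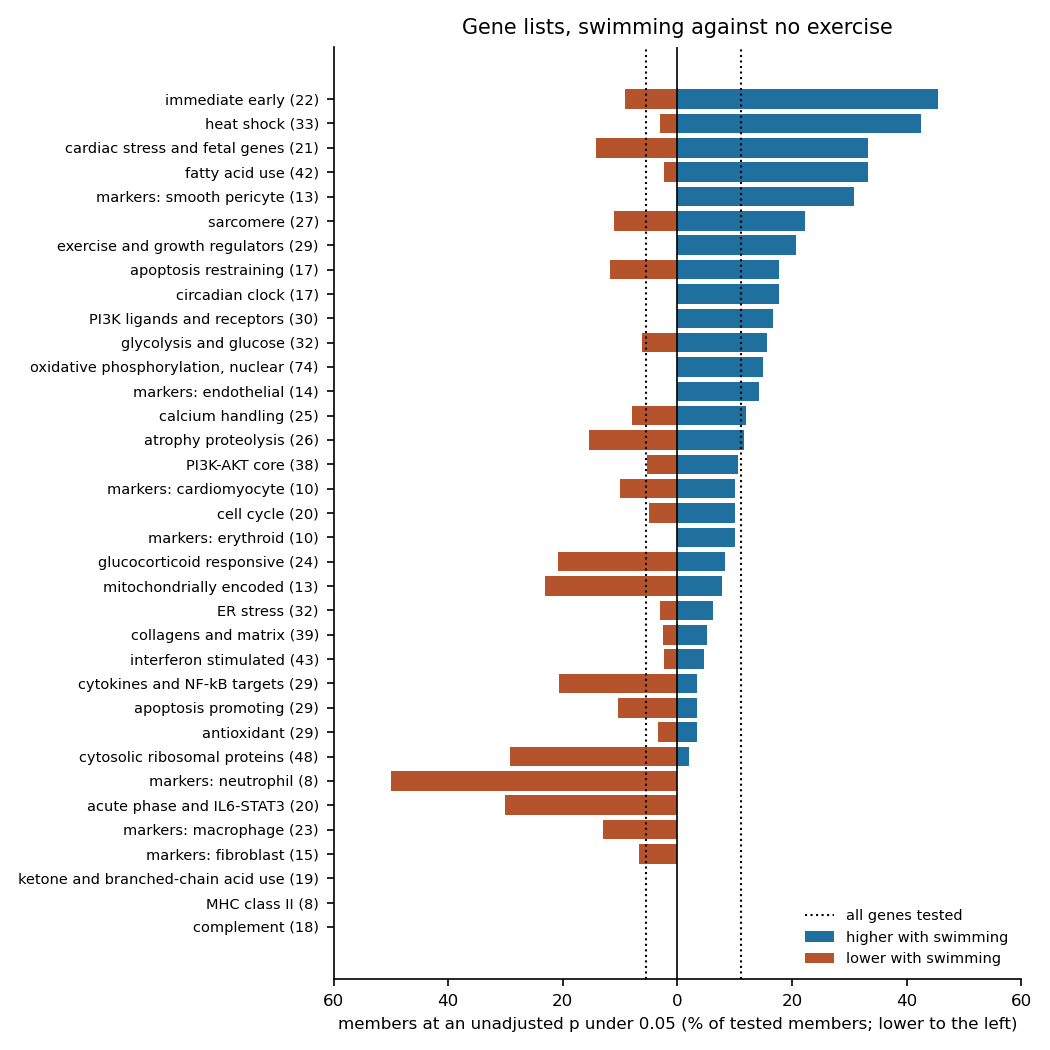
Share of the tested members of each gene list (number tested in parentheses, lists of 8 or more) at an unadjusted p under 0.05, higher with swimming to the right and lower to the left, in percent. The dotted lines mark 11.1% and 5.45% of all genes tested, and immediate early and heat shock genes extend furthest to the right, with neutrophil markers and acute phase genes furthest to the left.

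No cytosolic ribosomal protein gene passed. Of 48 tested, 1 was higher and 14 were lower at an unadjusted p under 0.05, with a median of -0.19, against 11.1% and 5.45% of all genes. The number lower was 8 without swim library 4 and 9 without tumour library 4 or swim library 5. Rpl5, a protein of the large subunit, was at 71.5 to 96.8 FPKM in tumour hearts and at 59.8 to 143 FPKM in swim hearts (log2 fold change -0.3 ± 0.1, adjusted p = 0.162). The highest swim value was that of library 1, in which the summed ribosomal level was 14660 FPKM, against 4570 to 14660 FPKM over all swim hearts with a median of 5657 and 5352 to 7894 FPKM in tumour hearts. The median of this list turned from -0.19 to 0.03 when library weights were left out, and 1 gene was then higher and 0 lower at that threshold.

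Genes of cell death and of muscle wasting gave 1 call between them. Of 29 tested genes that promote apoptosis, 1 was higher and 3 were lower at an unadjusted p under 0.05, with a median of -0.01, beside 11.1% and 5.45% of all genes. The death receptor gene Fas was at 9.68 to 12.5 FPKM in tumour hearts and 7.09 to 10.2 FPKM in swim hearts (log2 fold change -0.37 ± 0.09, adjusted p = 0.118). Of 17 tested genes that restrain apoptosis, 1 rose, Hspa1a, already described among the chaperones, beside 0.0817% of all genes tested. At an unadjusted p under 0.05, 3 of the 17 were higher and 2 lower, with a median of 0.06. Bax had medians of 7.63 and 9.15 FPKM (log2 fold change 0.15 ± 0.11, adjusted p = 0.517), and Bcl2 had medians of 1.56 and 1.62 FPKM (0.04 ± 0.08, adjusted p = 0.832).

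Of 26 tested genes of muscle atrophy and proteolysis, 3 were higher and 4 lower at an unadjusted p under 0.05, with a median of -0.03, again beside 11.1% and 5.45% of all genes. The ubiquitin ligase genes Fbxo32 and Trim63, which are known to rise in wasting muscle, were on the lower side. Fbxo32 was at 19.6 to 29.3 FPKM in tumour hearts (median 21.2) and 10.3 to 22.7 FPKM in swim hearts (median 17.1), with 5 of 6 swim libraries below every tumour library (log2 fold change -0.36 ± 0.13, adjusted p = 0.198). Trim63 had medians of 61 and 49 FPKM (log2 fold change -0.31 ± 0.12, adjusted p = 0.227). Mstn, the muscle growth inhibitor myostatin, was near the detection limit, at medians of 0.331 and 0.657 FPKM (log2 fold change 0.56 ± 0.18, adjusted p = 0.166). Apln, the peptide hormone apelin, was at 0.193 to 0.591 FPKM in tumour hearts and 0.262 to 0.859 FPKM in swim hearts (log2 fold change 0.21 ± 0.11, adjusted p = 0.341), and control hearts were at 3.18 to 7.98 FPKM. Mstn and Apln passed the filter of 0.5 FPKM only through swim hearts. Their means were 0.33 and 0.418 FPKM in tumour hearts and 0.809 and 0.561 FPKM in swim hearts.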

How the data were processed

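RNA of cardiac tissue was extracted with TRIzol and made into libraries with a NEBNext Ultra RNA kit, per the labels' protocols. The tools fastp, FastQC and bcl2fastq and the build mm10 appear in the submitters' processing notes. The sources used here do not give the aligner or the counter. The authors deposited 1 table of 28640 genes with a value per library. The deposited unit was taken to be FPKM, because value times GENCODE M21 exon length summed to 99.04 to 99.73% of 1000000 in every library. Low values were whole multiples of 1 read (98.71 to 99.05% of values under 20 reads within 0.1 of a whole number), from which depths of 13.4 to 19.8 M reads were recovered for the 12 libraries. Gene positions are those of GENCODE M21 (GRCm38), looked up by gene ID (28268 of 28640 found). Strand handling is not stated, so reads of overlapping genes cannot be told apart.

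Groups came from the genotype labels. Genes that reached a mean of 0.5 FPKM in either group were tested as log2(FPKM + 1) with limma 3.58.1 in R 4.3.3 (limma-trend, arrayWeights, group only, 10 residual degrees of freedom, two-sided, Benjamini-Hochberg at 0.05 over all genes). Library measures were compared by exact two-sided permutation tests (smallest possible p 0.00216). Gene lists (44) were described by counts and medians. The members and lists were chosen with earlier results of these data known. The genes named are the largest changes past the threshold (mean of at least 1 FPKM; up to 15 each way, or the 5 smallest p where fewer than 5 passed), the leading members of each list and 22 fixed genes, as far as they bear on a result; 1 of them is not reported here. Hspa1b, Hspb1, Rtl3, Acta2, Jund, Myc and S100a9 and the other list members given by their means were named after their values were seen. In all, 13 other settings and the omission of each of 12 libraries were tried, 2 of them (GC trend removed, alone and with the length trend) added after seeing the data. Scripts were tested on simulated data. Python 3.11.15, numpy 2.4.6, pandas 2.3.3, scipy 1.17.1 and matplotlib 3.10.9 were used. Promoter sequences are RefSeq's and were found for 14 of 15 genes sought.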

Additional observations from a re-analysis of the deposited data

Results flagged for a closer look

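In groups of 6, the highest or lowest library was singled out by Dixon's test at 95%, from its gap to the nearest other library as a share of the group's range. Of 132 groups examined, 22 were singled out, and chance gives about 1 in 20. In 15 of the 22 it was swim library 1.

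In swim hearts, library 1 was lowest on the log2(FPKM + 1) scale for Srf (gap 0.864 of the range), Ppp1r10 (0.707), Dact3 (0.778), Pkdcc (0.663), Hmgb2 (0.738), Arrdc3 (0.782), Myh6 (0.755), Ppargc1a (0.793), Trim63 (0.67), C3 (0.767), Pik3ca (0.826) and Bcl2 (0.861). It was also the highest swim library in mitochondrially encoded share (0.867) and in summed ribosomal protein level (0.866), and the lowest in genes at or above 0.5 FPKM (0.9). For Srf, Ppp1r10, Dact3 and Pkdcc, which rose with swimming, this library lay against the direction of the group, and for Hmgb2, which fell, it lay with it.

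Among the other libraries, swim library 6 was lowest for Cebpb (0.732) and swim library 4 for S100a9 (0.636). Tumour library 1 was highest for Rtl3 (0.684), Il1b (0.73), the summed neutrophil markers (0.661) and the summed ribosomal proteins (0.635). Tumour library 5 was highest in haemoglobin share (0.635).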

How the results depend on the processing

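The counts of 11 higher and 2 lower genes (limma) moved with most settings. They were 0 and 0 without library weights (529 genes at an unadjusted p under 0.05) and with no filter on low values (2339), 1 and 1 with swim library 1 left out and no weights, 10 and 5 with quantile normalization, 17 and 5 after scaling by median ratios, 11 and 5 after rescaling to reads not mitochondrially encoded, 16 and 8 with the length trend removed, 20 and 6 at a mean of at least 2 FPKM, 11 and 2 with a pseudocount of 0.1, and 32 and 13 with all 17 libraries in the fit. They were 0 and 1 with the GC trend removed (2027 at an unadjusted p under 0.05) and 0 and 1 with both trends removed. Leaving out each library gave 0 to 57 higher and 0 to 31 lower. With the replicate number as a block, 1 gene was higher and 0 lower (1886 at an unadjusted p under 0.05), and that gene is not among the 13, which all lost their call. Deviations of same-numbered libraries correlated at -0.21 to 0.52, and 1 pair matched best by number. So few pairs cannot show whether same-numbered libraries shared a batch or a step of processing. Without weights the median over all genes moved from 0.03 to -0.08.

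The 13 genes past the threshold kept their sign in all 324 tested gene and setting pairs, and lost the call in 166. Of the 41 other named genes, the 8 that follow changed sign in 32 pairs of gene and setting, all with an adjusted p of 0.517 or more in the fit reported. Myh6 was -0.266 without weights, -0.00172 with median ratios, -0.0176 rescaled, -0.000125 with length removed, -0.0592 with GC removed, -0.0662 with both removed and -0.00615 to 0.136 with a library left out. Nppa was -0.147 to 0.95 with a library left out. Nppb was 0.262 without weights, 0.24 without swim library 1 and weights, 0.0891 unfiltered and -0.202 to 0.209 with a library left out. C3 was -0.201 to 0.109 with a library left out. Akt1 was 0.0359 without swim library 1 and weights, 0.0057 unfiltered and -0.103 to 0.0911 with a library left out. Pik3ca was -0.178 without weights. Bax was -0.0444 with GC removed and -0.0587 with both removed. Bcl2 was -0.0962 without weights, -0.00182 with median ratios, -0.0129 rescaled, -0.0184 with length removed and -0.00572 to 0.0939 with a library left out. The cause of these moves was not tested.

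The difference in mitochondrially encoded share, 0.954 percentage points, was -1.36 as a share of summed FPKM and -3.43 to 2.22 with a library left out (-3.43 without swim library 1). The haemoglobin difference was -0.00563 to 0.0815 percentage points and the difference in genes at or above 0.5 FPKM was -462.8 to 61.6 genes, both turning sign without swim library 1. With no more than 6 libraries a group, depths of 13.4 to 19.8 M reads and values near 1 read for the rarest genes, changes of genes under 1 FPKM were weakly measured.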

Other observations

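Counts of further gene groups are at an unadjusted p under 0.05, at which 11.1% of all genes were higher and 5.45% lower. Of 25 tested genes of calcium handling, 3 were higher and 2 lower, and Jph2, which ties the plasma membrane to the calcium store, was at a mean of 85.5 FPKM in tumour hearts and 109 FPKM in swim hearts (log2 fold change 0.57, adjusted p = 0.12). Of 17 tested circadian clock genes, 3 were higher and 0 lower, with Dbp, an output gene of the clock, at a log2 fold change of 0.42 (adjusted p = 0.23). Of 24 tested glucocorticoid-responsive genes, 2 were higher and 5 lower, with a median of -0.1. Of 43 tested interferon-stimulated genes, 2 were higher and 1 lower, and of 39 tested collagen and matrix genes, 2 were higher and 1 lower.

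Of the markers of other cell types, 4 of 13 tested smooth muscle and pericyte markers were higher and 0 lower, Acta2 among them. The counts were 2 higher and 0 lower of 14 endothelial markers and 0 higher and 1 lower of 15 fibroblast markers. Of 20 lymphocyte markers, 3 were abundant enough to test. Txnip, a regulator of glucose uptake, was at a mean of 231 FPKM in tumour hearts, 138 FPKM in swim hearts and 109 FPKM in control hearts (log2 fold change -0.83, adjusted p = 0.11), and was picked out after its values were seen.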
